A study of Glycine max with 36 samples.

Results

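Of 47011 gene identifiers measured in soybean leaves, 122 stayed nearly level over 2 days of sampling, and these steady genes are described here. A gene was counted as steady when its mean over the 36 libraries was at least 20 FPKM and the highest of its 12 time point means was no more than 35% above the lowest. FPKM, the unit of the deposited values, scales fragments to gene length and to the total of mapped fragments, so a value gives a gene's share of its library. The level limit left 4793 genes, and the 122 steady genes were 2.55% of these. Because the members were chosen on their course over time, their flatness is a description and not a finding.

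The libraries were made from unifoliolate leaves of Glycine max cultivar Williams 82, which are the simple leaves that open before the compound ones. Seedlings grew for 9 days at 28 °C with 16 h of light and 8 h of dark, and then entered constant conditions. Harvests started at 11 days of age and were made every 4 h from zeitgeber time 0 (ZT0) to ZT44. All 12 groups are time points of this 1 course, with no untreated or mutant group, and each had 3 biological replicates that pooled leaves of 3 seedlings. Different plants were taken at each time, and the labels do not separate plant age from time spent in constant conditions.

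Genes whose transcript level does not change with the time of day are sought as reference genes, the internal standards against which quantitative PCR measurements of other genes are divided. Reference genes in plants are usually taken from housekeeping families such as actins, tubulins, ubiquitins, cyclophilins and translation elongation factors. In leaves the circadian clock, a feedback loop of transcription factors, sets the timing of a large part of the transcriptome and keeps running when light and temperature are constant. A gene used as a standard in a time course therefore has to be judged on several times of day, and on a scale that is itself free of a daily course.

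None of the identifiers (0 of 47011) matched the 59048 genes of the RefSeq table used here, which lists symbols, synonyms, locus tags and accessions. The file does not pair identifiers with names either, so members are given by identifier, no family or role is assigned to any of them, and the leaf identity of the tissue was not checked with marker genes. Sequence was not used here.

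Absolute depth is unknown, since the values are not counts. Libraries summed to between 651475 and 749531 FPKM. Steps in the values of low genes gave a relative depth from 0.794 to 1.14 times the median library, and a read was worth a median of 0.0341 FPKM in those low genes, which is far below the level of any steady gene. Of 268166 values of fewer than 8 steps, 72.3% lay within 0.1 of a whole step, so these figures are approximate. The step of a gene was its own lowest non-zero value after scaling for depth, which fits a whole step in advance. An earlier analysis of these data set 3 libraries apart from the rest, namely replicate 2 of ZT40 and replicates 2 and 3 of ZT44, and the results most affected are given with and without them.

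The steady genes covered a wide range of levels. Their means ran from 20.1 to 2300 FPKM with a median of 39.0 and quartiles of 25.9 and 78.9. At least 50 FPKM was reached by 48 of the 122, at least 100 by 24, at least 500 by 7 and at least 1000 by 3. They made up 74 of 3059 genes (2.42%) between 20 and 50 FPKM, 24 of 939 (2.56%) between 50 and 100, 17 of 625 (2.72%) between 100 and 500, and 7 of 170 (4.12%) at 500 or more. Steadiness as defined here was thus found at every level, and 3 members were among the 100 genes with the highest means.

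The ratio of the highest to the lowest time point mean had a median of 1.30 in the 122 steady genes, with quartiles of 1.26 and 1.33, against a median of 2.40 and quartiles of 1.87 and 3.70 in the other genes of at least 20 FPKM. The highest mean was at most 30% above the lowest in 60 members, at most 25% in 28 and at most 20% in 13, and the smallest ratio was 1.15. The members lay at the lower edge of a continuous distribution with no gap at the limit: in 19 members the highest mean was between 34% and 35% above the lowest, and in 19 other genes between 35% and 36%. Just inside the limit were GLYMA06G15070 at 1.3493, with a mean of 90.5 FPKM, and GLYMA12G32190 at 1.3495, with 20.7 FPKM. Just outside were GLYMA17G38220 at 1.3505, with 101.7 FPKM, and GLYMA11G02020 at 1.3514, with 23.4 FPKM.

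**Figure D1:**
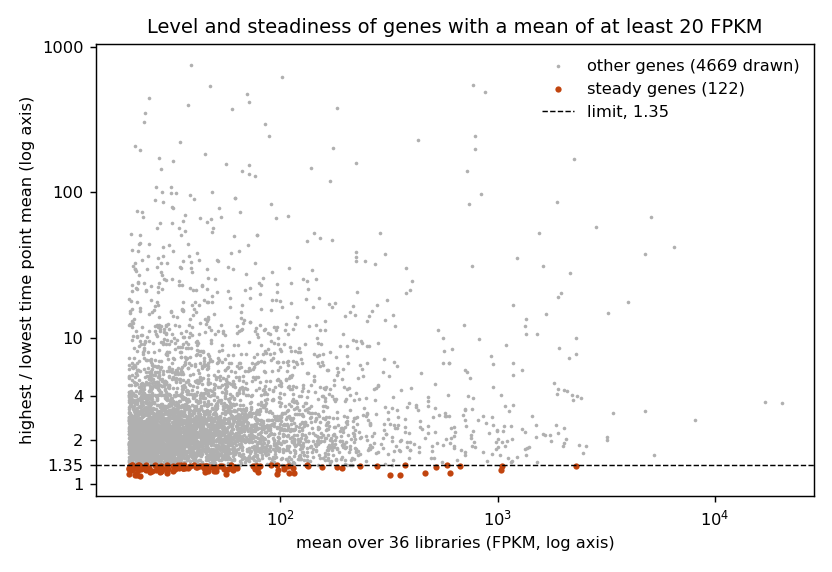
Mean over the 36 libraries (FPKM, log axis) against the ratio of the highest to the lowest time point mean (log axis) for genes averaging 20 FPKM or more. The 122 steady genes (orange) lie under the dashed limit of 35% above the lowest at all levels up to 2300 FPKM, and the other genes (grey) continue above it without a gap.

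GLYMA08G11940 had the smallest ratio, 1.15, with a mean of 22.6 FPKM. From ZT0 to ZT12 its replicates 1, 2 and 3 read 23.6, 23.0 and 21.0 FPKM at ZT0, 23.2, 21.9 and 22.1 at ZT4, 20.3, 21.6 and 21.2 at ZT8, and 23.5, 21.9 and 22.6 at ZT12. From ZT16 to ZT28 they read 23.9, 21.5 and 25.01, then 22.5, 24.0 and 25.8, then 20.8, 23.4 and 21.2, and then 22.7, 23.6 and 22.4. From ZT32 to ZT44 they read 22.7, 22.1 and 24.8, then 25.9, 22.8 and 22.1, then 24.5, 19.2 and 24.7, and then 24.5, 19.4 and 19.5. The highest time point, ZT20 at 24.1 ± 1.65 FPKM, and the lowest, ZT8 at 21.0 ± 0.674 (SD, n = 3 each), did not overlap, but the other time points lay between and among them. Its 3 lowest values were those of ZT40 replicate 2 and of ZT44 replicates 2 and 3, the libraries that stand apart.

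GLYMA10G29810 had the next smallest ratio, also 1.15, at a mean of 319 FPKM. Its replicates read 292, 287 and 307 FPKM at ZT0, 344, 327 and 346 at ZT8, 318, 330 and 337 at ZT16, and 289, 287 and 319 at ZT24. At ZT40 they read 314, 378 and 304, and at ZT44 293, 362 and 347, so that here the libraries that stand apart were high rather than low. The time point means ran from 295 ± 10.8 FPKM at ZT0 to 339 ± 10.7 at ZT8 (SD, n = 3 each), whose libraries did not overlap. No 24-h rhythm was called for GLYMA08G11940 (amplitude 0.02 ± 0.03, SE, on the log2 scale, adjusted p = 0.678) or for GLYMA10G29810 (0.05 ± 0.03, adjusted p = 0.19), by limma's F-test. Without the 3 libraries their ratios were 1.17 and 1.16.

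In the 2 most abundant members the replicates differed widely late in the course. GLYMA04G02240 had the highest mean of all members, 2300 FPKM, rank 20 among all genes. It read 2461, 2330 and 2482 FPKM at ZT0, 1799, 2232 and 1974 at ZT12, and 2700, 2321 and 2741 at ZT24. At ZT40 it read 1735, 2576 and 1637 FPKM, with replicate 2 far above the other two, and at ZT44 2077, 2968 and 2833, with replicates 2 and 3 above replicate 1. Its ratio was 1.32 with all libraries and 1.53 without the 3 libraries that stand apart, which is outside the limit. A 24-h rhythm was called for it, with an amplitude of 0.17 ± 0.04 (SE, log2) and a peak at ZT1.2 (adjusted p = 0.00107, limma).

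GLYMA15G43100, with a mean of 1047 FPKM and rank 83, showed the same split more strongly. Its replicates read 1246, 1151 and 1247 FPKM at ZT4 and 978, 851 and 963 at ZT20, and these groups did not overlap. They read 805, 1397 and 518 FPKM at ZT40 and 660, 1219 and 1128 at ZT44. The SD of 448 FPKM around a mean of 907 at ZT40 was larger than the range of its 12 time point means, and the lowest and the highest of its 36 values both came from ZT40. Its ratio rose from 1.34 to 1.84 without the 3 libraries. The rule averages replicates and so does not see this spread.

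**Figure D2:**
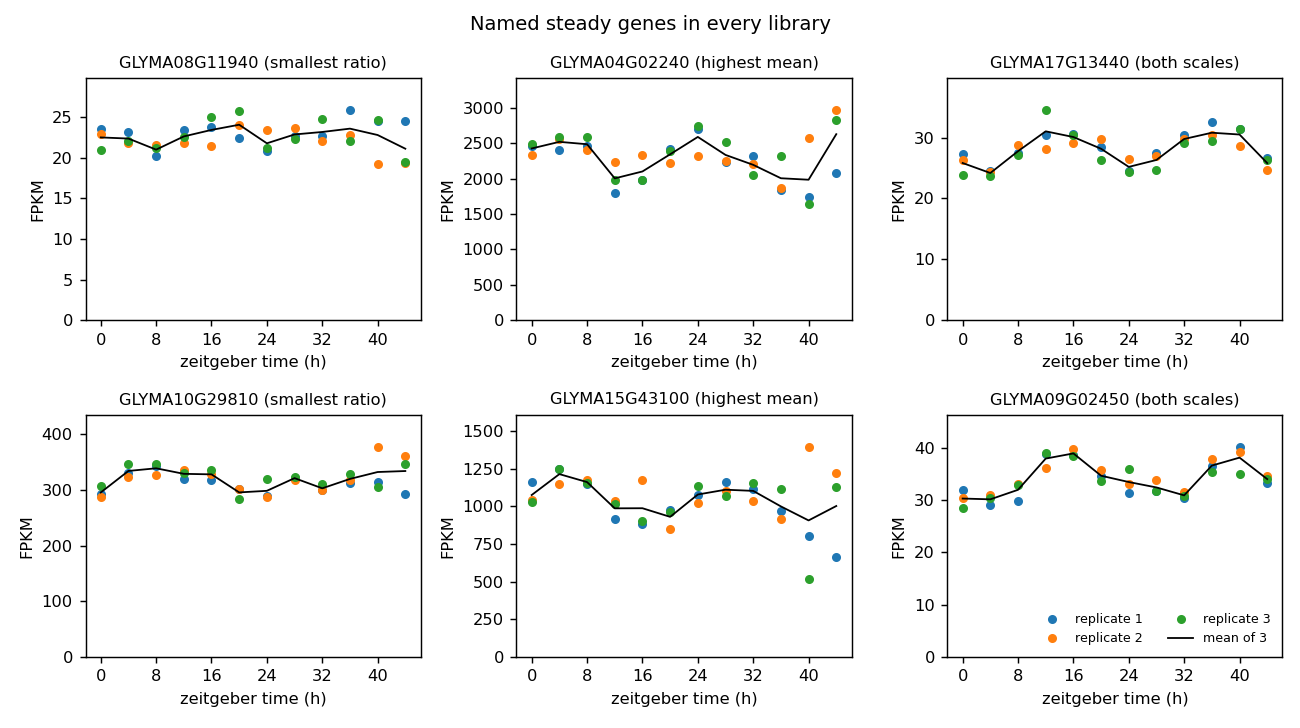
FPKM of 6 steady genes in each of the 36 libraries by zeitgeber time (h), with 1 panel per gene, points coloured by replicate, a line through the means of 3, and vertical axes that start at 0. The 2 genes with the smallest ratio (left) stay flat apart from ZT40 and ZT44. The 2 with the highest mean (middle) split widely between replicates at these times. The 2 that were also steady relative to the median gene (right) show no such wide split there. At ZT12 the replicates of GLYMA17G13440, 1 of these 2, spread from 28.0 to 34.5 FPKM.

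Over all 122 steady genes, the spread between replicates was small but not always smaller than the change over time. The coefficient of variation within a time point, averaged over the 12 time points, had a median of 5.99% (quartiles 4.91% and 7.31%, range 2.67% to 13.4%), against a median of 8.41% (quartiles 6.65% and 10.8%) in the other genes of at least 20 FPKM. A low spread between replicates helps a gene to pass the rule, so this difference is also a description. Between single libraries the highest value was 1.503 times the lowest in the median member (quartiles 1.42 and 1.59, range 1.27 to 2.70), and it was more than 2 times the lowest in 5 members. In all 5 of these, the lowest and the highest library both belonged to ZT40 or ZT44. ZT40 replicate 2 alone held the highest or the lowest of the 36 values in 38 of the 122 members. ZT40 replicate 3, which is not among the 3 libraries that stand apart, held the highest value in 11 members and the lowest in 13. ZT24 replicate 3, not among them either, held the highest in 2 and the lowest in 14. Of those that stand apart, ZT44 replicate 2 held an extreme in 16 members and ZT44 replicate 3 in 2.

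The 3 libraries that stand apart moved members in both directions. Relative to the other replicates of the same time point, all 3 were higher in 57 members (46.7%) and all 3 lower in 36 (29.5%). The same pattern was found in 42.7% and 20.8% of all genes of at least 20 FPKM. Leaving the 3 libraries out gave 135 steady genes, of which 95 were among the 122. ZT44 is then represented by replicate 1 alone. This comparison of directions was chosen after the data were seen.

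Within the narrow band that the rule allows, the median of the steady genes followed a faint course that single members did not all share. Relative to each gene's own mean, the median member was at 0.975 at ZT0, 0.971 at ZT8, 1.03 at ZT16, 0.973 at ZT24 and 1.04 at ZT40. The members spread more widely than this, with quartiles of 0.923 and 1.05 at ZT0, 0.913 and 1.04 at ZT8, and 0.966 and 1.08 at ZT16. At ZT24 the quartiles were 0.914 and 1.02, and at ZT40 0.990 and 1.11. The highest of the 12 means fell most often at ZT40 (21 members) and least often at ZT24 (2 members), and the lowest fell most often at ZT24 (21 members) and least often at ZT40 (4 members). The same 5 time points in all genes of at least 20 FPKM had medians of 0.866, 0.901, 1.12, 0.883 and 1.19, a course in the same direction with a wider swing. The 2 extremes were mostly in different members, and 8 of the 122 had their highest mean at ZT40 and their lowest at ZT24. Without the 3 libraries that stand apart the median member was at 1.03 at ZT40 and 0.972 at ZT24, the highest mean fell at ZT40 in 25 members, and the lowest fell at ZT8 and at ZT24 in 19 members each. These values without the 3 libraries were added after the data were seen.

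A geometric mean over the 122 genes, which is how several reference genes are combined into 1 standard, was flatter on the deposited scale than the single members. It ran from 0.966 in ZT24 replicate 1 to 1.05 in ZT40 replicate 2, where 1 is the average library, so the highest library was 1.09 times the lowest. Its time point means ran from 0.973 ± 0.00993 (ZT24) to 1.03 ± 0.0277 (ZT40), with the SD over 3 libraries. Without the 3 libraries that stand apart the highest library was ZT40 replicate 1 at 1.05, still 1.09 times the lowest. After division by the library factors described below, the same mean ran from 0.754 in ZT40 replicate 3 to 1.24 in ZT24 replicate 3, 1.64 times the lowest. Since the genes were chosen for flat means on the deposited scale, these values describe the choice.

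On the deposited scale, the label of these genes as lacking a daily change did not mean that no rhythm was called. A 24-h rhythm was called in 83 of the 122 steady genes, where 94.4% of the 27449 genes tested were called (limma's moderated F-test of cosine and sine terms with a 24-h period on log2(FPKM + 1), Benjamini-Hochberg adjusted p under 0.05). A change between the 12 time points was called in 88 members, where 95.1% of all genes were called. The rule used the same values, so nothing is read from the distance between these shares. Both tests and the test of the day level below were passed by 15 members, where 46.1% of all genes tested passed all 3. None of the 3 was passed by 21 members, where 2.43% of all genes passed none.

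The rhythms of steady genes were shallow. The rule limits the change between time point means, so it limits the amplitude in advance, and the amplitudes are a description. The fitted amplitude, which is the height of the peak above the mid-level of the curve on the log2 scale, had a median of 0.10 in the 122 members (quartiles 0.07 and 0.15, highest 0.21), which is a median of 1.15-fold from trough to peak and at most 1.34-fold. In the 83 members called the amplitude had a median of 0.13 and a lowest value of 0.07, or a median of 1.19-fold and a lowest of 1.10-fold from trough to peak, against a median amplitude of 0.37 in all genes called. The median amplitude was 0.48 in all genes of at least 20 FPKM and 0.36 in all genes tested. Of the 83 members called, 27 peaked within 2 h of ZT16, 16 around ZT12, 15 around ZT20, 10 around ZT4, 8 around ZT8 and 7 around ZT0. Peaks from ZT10 to ZT22 made up 58 of the 83 (69.9%), against 83.1% of all genes with a called rhythm.

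Levels drifted little between the days. The rule holds the time point means of both days within the same limit. It therefore limits the day difference in advance, and the small drift is a description. At matched times of day, 19 members were higher and 9 lower in the second 24 h (ZT24 to ZT44) than in the first (ZT0 to ZT20), by limma's moderated test, where 29.8% of all genes tested were called higher and 18.8% lower. The 28 calls in both directions stand beside 48.6% of all genes tested. The choice used the same libraries, so nothing is read from the distance between the member calls and the shares of all genes. The difference ran from -0.17 to 0.21 on the log2 scale with a median of 0.01, and the median of all genes tested was 0.03. The extremes, chosen after their values were seen, were GLYMA20G21100 and GLYMA12G05340. The 18 libraries of the first day had a lowest, median and highest value of 299, 347 and 408 FPKM for GLYMA20G21100, and those of the second day 352, 403 and 446, an overlap of the days with a rise of 0.21 ± 0.03 (SE, adjusted p = 3.05e-06, limma). For GLYMA12G05340 they had 54.1, 59.4 and 67.1 FPKM on the first day and 44.6, 55.6 and 60.8 on the second, and the day difference was -0.17 ± 0.04 (SE, adjusted p = 0.00071, limma).

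Whether a gene counted as steady depended on the scale. The deposited values make each gene a share of its library, and the level of the typical gene on that scale followed the time of day. Each library was therefore also divided by a factor that sets its median gene to the same level in all libraries, taken as the median over genes of the value divided by the gene's geometric mean. These factors ran from 0.785 to 1.33 over the 36 libraries. Their time point means were 0.835 ± 0.0189 at ZT0, 0.827 ± 0.00179 at ZT4, 1.20 ± 0.0409 at ZT12, 0.848 ± 0.0616 for ZT24 and 1.23 ± 0.0891 at ZT40, with the SD over 3 libraries, and the 12 time point means spanned 0.57 on the log2 scale. A gene that is flat as deposited must therefore move against this course after division.

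Relative to the median gene, the 122 steady genes rose and fell together each day. Their median course was at 1.16 of the gene's own mean at ZT0 and 1.18 at ZT4, fell to 0.821 at ZT12, returned to 1.14 at ZT24 and was at 0.842 at ZT40. A 24-h rhythm was called in all 122 on this scale, where 86.3% of all genes tested were called, and in all 122 the fitted peak lay between ZT22 and ZT6, against 32.6% of all genes called on this scale. The choice on the deposited scale and the daily course of the factors bear on this count, and nothing is read from it. A change between time points was called in 118, where 87.9% of all genes were called. The median amplitude was 0.26, against 0.26 in all genes tested and 0.40 in genes of at least 20 FPKM on this scale, and the amplitude was larger than as deposited in 108 of the 122. The median ratio of the highest to the lowest time point mean rose from 1.30 to 1.59, with a highest value of 1.99.

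**Figure D3:**
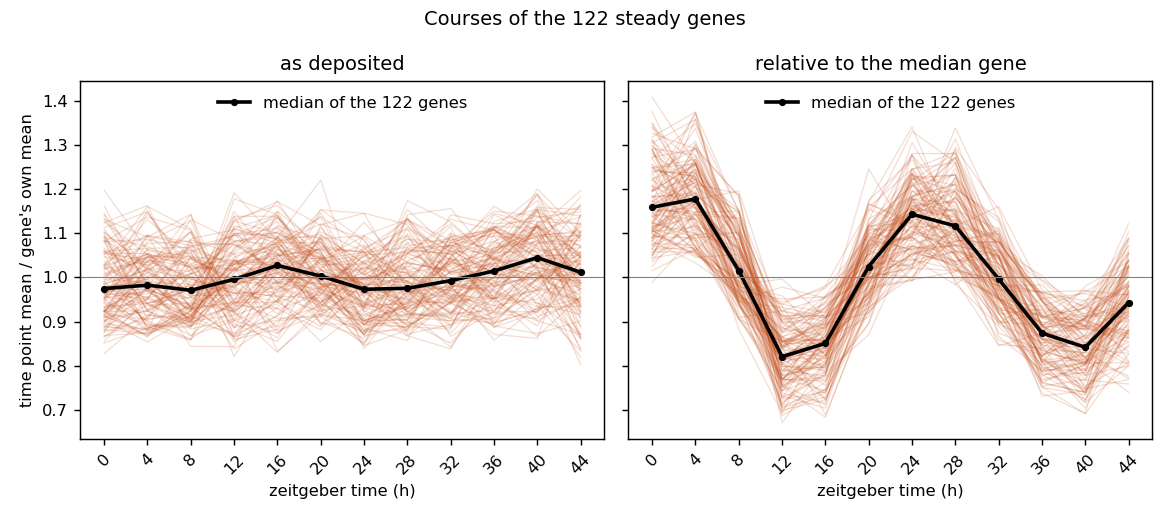
Time point means of the 122 steady genes divided by each gene's own mean, against zeitgeber time (h), on the deposited scale (left) and relative to the median gene (right). Each thin line is a gene and the thick line is the median of the 122, which stays between 0.971 and 1.04 on the left and swings between 0.821 and 1.18 on the right.

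GLYMA08G11940 showed the change of scale clearly. As deposited it was at 22.4 ± 0.689 FPKM at ZT4 and 22.7 ± 0.803 at ZT12, and relative to the median gene at 27.1 ± 0.783 and 18.8 ± 0.0336 (SD, n = 3 each). The rescaled libraries of these 2 times did not overlap. Its rescaled amplitude was 0.25 ± 0.03 (SE, adjusted p = 1.51e-10, limma) with a peak at ZT2.4, and its ratio was 1.46. GLYMA10G29810 had a rescaled amplitude of 0.26 ± 0.03 with a peak at ZT2.9 (adjusted p = 2.24e-08) and a ratio of 1.49. Both genes were named for the smallest ratios as deposited, so division by the factors largely sets these courses in advance. Nothing is read from these calls.

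The same rule applied to the rescaled values gave 323 genes, of which 16 were among the 122. The shared genes were 13.1% of the steady genes as deposited, where 6.74% of all genes of at least 20 FPKM met the rescaled rule. They were 4.95% of the rescaled list, where 2.55% of all genes of at least 20 FPKM were steady as deposited. The 323 genes had a median ratio of 1.60 as deposited. The lists also differed in level: 276 of the 323 lay between 20 and 50 FPKM, 12 between 100 and 500 and none (0) at 500 or more, where the list as deposited held 7. The median of their means was 28.7 FPKM, against 39.0 in the steady genes as deposited. No test of this difference was made.

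**Figure D4:**
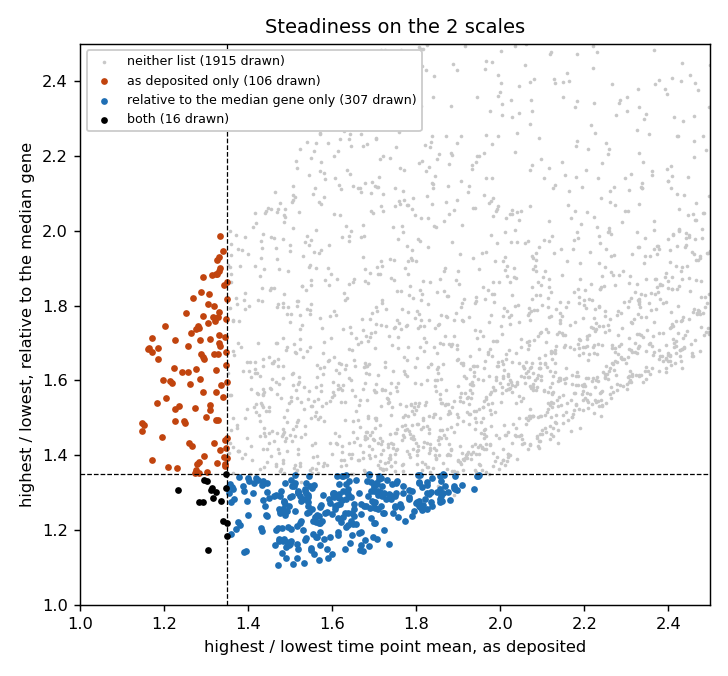
Ratio of the highest to the lowest time point mean on the deposited scale (horizontal axis) and relative to the median gene (vertical axis) for genes of at least 20 FPKM with both ratios up to 2.5, with the limit of 35% dashed on each axis. Steady genes as deposited (orange) reach 1.99 on the vertical axis, those steady relative to the median gene (blue) reach 1.95 on the horizontal axis, and 16 genes (black) lie inside both limits.

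The 16 genes that met the rule on both scales had means from 20.6 to 182 FPKM with a median of 34.9. A 24-h rhythm was called in all 16 as deposited, with a median amplitude of 0.17, and in all 16 relative to the median gene, with a median amplitude of 0.14, on values that the choice had used. As deposited, their median course was at 0.878 at ZT4, 1.11 at ZT12 and 1.13 at ZT40, and relative to the median gene at 1.06, 0.919 and 0.923. The rescaled course is the deposited one divided by factors that were 1.49 times as high at ZT40 as at ZT4, so a gene inside the limit on both scales has to differ between these times on at least 1 of them. Without the 3 libraries that stand apart, 12 of the 16 still met the rule as deposited and 9 on both scales.

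Of these 12, GLYMA17G13440 had the smallest larger ratio, which was 1.28 on both scales. Its replicates read 24.5, 24.4 and 23.6 FPKM at ZT4, 30.5, 28.0 and 34.5 at ZT12, 24.6, 26.6 and 24.4 at ZT24, and 32.6, 30.4 and 29.5 at ZT36. The libraries of ZT12 and ZT36 were all above those of ZT4 and ZT24. The amplitude as deposited was 0.15 ± 0.02 with a peak at ZT13.2 (adjusted p = 2.24e-07, limma), and relative to the median gene 0.14 ± 0.02 with a peak at ZT3.7 (adjusted p = 3.26e-06).

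GLYMA09G02450 followed with ratios of 1.29 and 1.28 and a mean of 34.2 FPKM. It read 29.1, 31.1 and 30.4 FPKM at ZT4, 38.6, 39.8 and 38.5 at ZT16, 30.4, 31.6 and 30.8 at ZT32, and 40.3, 39.2 and 35.04 at ZT40. Its time points at the top and at the bottom did not overlap, so this small swing was larger than the spread between replicates. At ZT44 it read 33.3, 34.7 and 34.2 FPKM, without the split between replicates seen in the most abundant members. Its amplitude was 0.16 ± 0.02 on the deposited scale and 0.14 ± 0.03 after rescaling (SE, adjusted p = 1.15e-07 and 4.06e-05, limma). The fitted peak was at ZT15.3 as deposited and at ZT1.3 after rescaling.

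Steadiness was then tested in libraries that had no part in the choice. Genes were chosen by the same rule from 2 replicate numbers and examined in the 12 libraries of the other number, in 3 rotations that share libraries. The choice gave 92, 105 and 100 genes with replicate 1, 2 and 3 held out. Of all 166 genes chosen at least in 1 rotation, 43 were chosen in all 3.

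The chosen genes were steadier than others in the replicate held out. The highest of the 12 held-out values was a median of 1.37, 1.44 and 1.43 times the lowest for the genes chosen without replicates 1, 2 and 3, against medians of 2.51, 2.56 and 2.54 in all genes of at least 20 FPKM. The upper quartiles of the chosen genes, 1.47, 1.58 and 1.51, lay below the lower quartiles of all genes of at least 20 FPKM, 1.87, 1.96 and 1.94. A ratio of at most 1.5 was kept by 74 of 92 (80.4%), 69 of 105 (65.7%) and 71 of 100 (71.0%) of the chosen genes, against 6.60%, 4.93% and 4.51%. The limit of 35% itself was kept by 39, 31 and 28 of them. Here each time point is a single library, so a ratio holds more replicate error than in the choice.

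A 24-h rhythm in the held-out replicate was called in 30 of 92 chosen genes (32.6%) for replicate 1, where 83.4% of all genes tested were called. It was called in 28 of 105 (26.7%) for replicate 2, where 78.9% were called, and in 29 of 100 (29.0%) for replicate 3, where 81.7% were called (limma's F-test with Benjamini-Hochberg adjustment over all genes tested in those 12 libraries). In genes of at least 20 FPKM the share called was 89.0%, 88.7% and 88.1%. The median amplitude of the chosen genes was 0.13, 0.13 and 0.12 on the log2 scale, against 0.47, 0.49 and 0.49 in genes of at least 20 FPKM. The share of chosen genes called was thus below that of all genes tested in each of the 3 rotations. A gene that was not called is not shown to lack a rhythm.

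The same held-out comparison relative to the median gene, with choice and test both on that scale, gave 254, 314 and 273 chosen genes. A rhythm was called in 45, 69 and 26 of these (17.7%, 21.97% and 9.52%), where 59.3%, 64% and 58% of all genes tested were called. The median held-out ratio of the chosen genes was 1.33, 1.40 and 1.36, against 2.29, 2.30 and 2.34 in all genes of at least 20 FPKM. Genes chosen on either scale thus had smaller ratios and fewer calls in the held-out libraries on that same scale. The factors were taken from all 36 libraries, so on the rescaled scale the held-out libraries were not wholly unused.

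**Figure D5:**
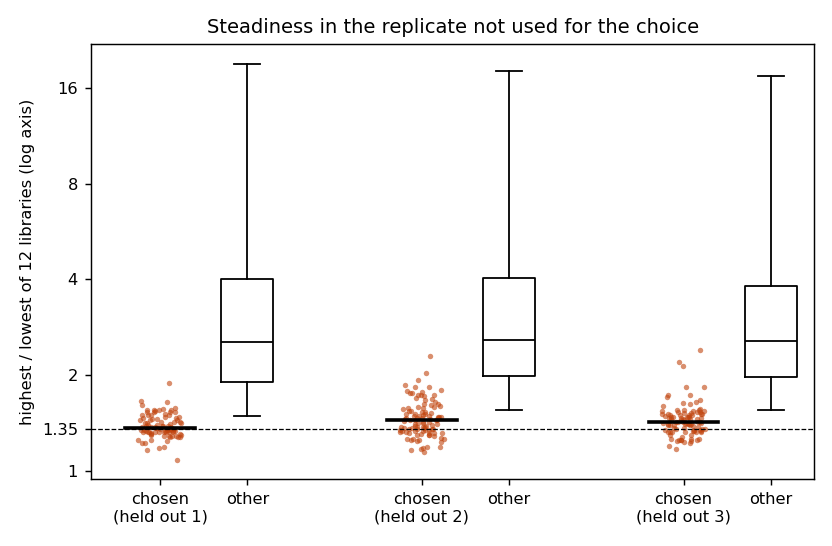
Ratio of the highest to the lowest of 12 libraries (log axis) in the replicate that was not used for the choice, for genes chosen as steady from the other 2 replicates (orange points, thick line at the median) and for the other genes of at least 20 FPKM (boxes from the lower to the upper quartile with a line at the median, whiskers from the 5th to the 95th percentile). The medians of the chosen genes are 1.37, 1.44 and 1.43, and the dashed line is the limit of 35% above the lowest.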

How the data were processed

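The authors deposited 1 table of FPKM values with 36 columns, each matched to a sample by its title. Per the submitters' processing notes, TopHat2 2.1.0 and HTSeq 0.6.0 were used, in roles that are not stated. Neither the tool that made the FPKM nor the build or annotation is stated in the sources used here. The FPKM are not counts, so no count model was used. Tests were run in limma 3.58.1 (R 4.3.3) with a trend on log2(FPKM + 1) over 27449 genes averaging 1 FPKM or more, which understates changes of low genes, with Benjamini-Hochberg adjustment over all of them at 0.05. The scripts were tested on simulated data. The rhythm test had a term for the day, and the day test had time of day as a factor.

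The members, lists and tests were chosen with earlier results of these data known. Named genes were the first 2 by smallest ratio, by highest mean, just inside and just outside the limit, and by the larger ratio of both scales among members that also passed without the 3 libraries. Gene families, reference gene families, tissue markers and promoter motifs were planned and not run, because no identifier could be matched. Alternatives were the scale, limits, pseudocount, filter, replicate block and libraries left out. Replicates are pools of different seedlings.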

Additional observations from a re-analysis of the deposited data

How the results depend on the processing

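The number of steady genes, 122, was set mostly by the limits and the scale. It was 28 with a limit of 25% above the lowest, 372 with 50%, 241 with a floor of 10 FPKM and 48 with a floor of 50 FPKM. Median-ratio rescaling gave 323 genes (16 shared with the 122) and quantile normalization 377 (43 shared). Medians of replicates in place of means gave 95, of which 82 were shared. Leaving out 1 replicate number gave 92 to 105 genes, 78 to 82 of them shared. The member calls ranged from 56 (without replicate 1) to 69 for the 12 time points, from 62 to 79 for the rhythm and from 12 to 18 for the day level when 1 replicate number was left out, against 88, 83 and 28, and these fits have fewer libraries. In the same fits 88.2% to 92.5%, 91.2% to 92.7% and 35.5% to 41.0% of all genes tested were called. Without the 3 libraries that stand apart the calls were 105, 95 and 36, where 96.5%, 94.9% and 51.3% of all genes were called. The fit with the replicate number as a block gave 87, 84 and 27 calls, where 95.2%, 94.4% and 48.4% of all genes were called. Same-numbered libraries deviated from their time point means with mean correlations of 0.018, 0.020 and -0.004 across genes for replicates 1, 2 and 3. Single pairs ran from -0.227 to 0.475, from -0.187 to 0.603 and from -0.320 to 0.315. Of 66 pairs each, 16, 11 and 15 were over 0.1. A pseudocount of 0.1 and no filter on low values changed no count of members or chosen genes called by more than 3. Without the filter the share of all genes called fell to 72.0% for the 12 time points, 72.2% for the rhythm and 36.4% for the day level. For the held-out rhythm it fell to 56.2%. The held-out rhythm calls, 87 of 297 over the 3 rotations, were 140 of 841 after rescaling and 94 of 359 without the 3 libraries. On average over the rotations, 81.3%, 60.4% and 81.0% of all genes tested were called in these 3 settings. The mean over the 3 rotations of the median held-out ratio of the chosen genes, 1.41 ± 0.038 (SD), was 1.36 after rescaling and 1.36 without the 3 libraries. The ratios of the 10 named genes moved by more than their spread over replicates in 7 cases after rescaling, 2 without the 3 libraries, 2 with medians, and 1, 4 and 0 without replicates 1, 2 and 3. With unknown depth, no counting error can be given for single values, and a member that was not called is not shown to lack a rhythm.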
